A study of Mus musculus with 18 samples.

Results

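The 10 genes described here are those of MHC class II antigen presentation: the transactivator Ciita, the invariant chain Cd74, the surface chains H2-Aa, H2-Ab1 and H2-Eb1, the peptide-loading chains H2-DMa, H2-DMb1 and H2-DMb2, and the loading modulators H2-Oa and H2-Ob. They were chosen by name, and all 10 were found among the 53465 genes of the count table. Every cell came from the contused spinal cord of female C57BL/6J mice aged 8 to 10 weeks. At 48 h after spinal cord injury (SCI), 3 mice received PBS, the vehicle (mice 1, 2 and 3), 3 received 100 ng of recombinant IL-13 (rIL-13; mice 5, 6 and 7) and 3 received 100 ng of recombinant IL-4 (rIL-4; mice 8, 9 and 10), each as an injection into the cord. Microglia (CD45 low, CD11b+, F4/80+) and macrophages (CD45 high, CD11b+, F4/80+) were sorted from each cord 24 h later, which gave 18 libraries in 6 groups of 3 mice. No uninjured mice were among these libraries, so all groups share the injury.

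MHC class II molecules are pairs of an alpha and a beta chain that show peptides from endocytosed proteins to CD4+ T cells. Newly made pairs bind the invariant chain Cd74, which fills the groove and directs them to endosomes, where cathepsins trim it to a short remnant. H2-DM then exchanges this remnant for peptide, and H2-O restrains H2-DM. Ciita carries no DNA-binding activity of its own and is recruited by RFX, CREB and NF-Y, which sit on the X and Y boxes of these promoters. Microglia of the healthy cord show little class II on their surface, and injury is known to raise it, whereas macrophages that enter from blood carry more.

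The H2 genes lie together on chromosome 17 (GRCm38): H2-Oa from 34092340 to 34095234, H2-DMa from 34119541 to 34139101, H2-DMb2 from 34143307 to 34151555, H2-DMb1 from 34153072 to 34160230, H2-Ob from 34238903 to 34254414, H2-Ab1 from 34257689 to 34269419, H2-Aa from 34282744 to 34287823 and H2-Eb1 from 34305867 to 34316674. H2-Aa is on the minus strand and the others are on the plus strand. Ciita is on chromosome 16 from 10480059 to 10528418. C57BL/6 mice carry a null allele of the E alpha gene. H2-Ea-ps, the row of that gene, had 0 counts in all 18 libraries, so H2-Eb1 mRNA was measured without that of its usual partner.

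The promoters of these genes are shown because the members did not move as a single block, although textbook accounts place the same boxes before them. RefSeq windows of 300 bases (GRCm38.p6, 250 before and 50 after a start) were found for 7 members, with 8 windows in all, since H2-DMa had 2. In 5 of the 7 members, GNAAC was followed by GATTGG, the reverse complement of a Y box, with 29 to 32 bases from the first base of one to the first base of the other. A pair of this kind, with that distance at 25 to 45 bases, was present in 1.17% of all 32851 windows, both strands searched. This pair was chosen after the windows had been seen. The capitals mark both boxes in each sequence, written 5′ to 3′ on the strand of the gene.
H2-Aa (chr17:34287859-34287916, minus strand): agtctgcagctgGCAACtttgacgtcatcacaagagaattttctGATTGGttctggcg
H2-Eb1 (chr17:34305764-34305820, plus strand): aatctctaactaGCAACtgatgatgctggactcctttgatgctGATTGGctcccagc
H2-DMb1 (chr17:34153085-34153142, plus strand): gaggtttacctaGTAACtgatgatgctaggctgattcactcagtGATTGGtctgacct
H2-Oa (chr17:34092291-34092348, plus strand): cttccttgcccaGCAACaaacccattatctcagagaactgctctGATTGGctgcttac
H2-Ob (chr17:34238806-34238860, plus strand): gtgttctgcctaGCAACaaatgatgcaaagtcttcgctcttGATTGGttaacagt

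The GNAAC box began 76 to 94 bases before the RefSeq start of the window in these 5 genes. That start can differ from the start of the gene extent given above. The stretch of H2-DMb1 lies inside its extent, which begins at 34153072, and that of H2-Oa runs into its extent, which begins at 34092340. The windows of H2-DMa and H2-DMb2 held no such pair, but these windows lay inside the gene extents given above. The bases just before the extents of H2-DMa and H2-DMb2 were not searched. CCAAT, the Y box itself, was in 37.4% of all windows, both strands searched, and it overlaps GATTGG read on the other strand. The core of the X1 box was in 14.0% of all windows and was found in those of H2-DMb1, H2-Eb1 and H2-Oa. In H2-DMb1 and H2-Eb1 it began at the marked GNAAC. In H2-Oa it began 140 bases before the start, outside the printed stretch. The STAT6 motif, TTC and GAA with 4 bases between them, was in 6.95% of all windows and in 0 of the member windows. A match shows only that these letters are in the window.

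Libraries held between 35961305 and 45849829 counts. The labelled cell types were checked against marker lists. All 12 microglia markers, such as Tmem119 and P2ry12, were DE with a higher level in microglia than in macrophages after PBS, where 6 of the 10 monocyte and macrophage markers were lower and 1 was higher. Markers of other cells were measured in both sorts. Tmem119 had 176 ± 46.4 CPM (counts scaled to a common library size with TMM; mean ± SD, n = 3) in PBS macrophages against 539 ± 141 in PBS microglia. The summed CPM of 8 fibroblast and pericyte markers was between 217 and 8080 in microglia libraries and at most 9.64 in macrophage libraries, and it was highest in the rIL-13 microglia of mouse 6. Mitochondrially encoded genes took between 7.89% and 17.0% of the counts of rIL-4 microglia and between 1.10% and 5.49% in the other groups. Genes with at least 10 counts numbered 13338 to 13744 in rIL-4 microglia, 14130 to 14583 in rIL-13 microglia and 15113 to 15463 in PBS microglia, and the part of this in the class II values was not tested. Fewer cells of a type and less RNA per cell cannot be told apart in such bulk libraries.

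In PBS macrophages, Cd74 was the most abundant member per length, and the surface chains followed. Levels here are counts per kilobase of exon, scaled to the same sum over all genes in each library. Cd74 had a level of 556 ± 217 (SD, n = 3), H2-Eb1 248 ± 69.3, H2-Ab1 201 ± 57.9, H2-Aa 134 ± 33.8, H2-DMb1 84.1 ± 11.3 and H2-DMa 57.0 ± 5.71. H2-DMb2, H2-Oa, H2-Ob and Ciita had mean levels between 1.71 and 7.72. The ranges over mice overlapped between H2-Eb1 and H2-Ab1 and between H2-Ab1 and H2-Aa, and did not overlap between Cd74 and H2-Eb1, H2-Aa and H2-DMb1, H2-DMb1 and H2-DMa, or H2-DMa and H2-DMb2. With the longest transcript as the length, H2-Ab1 had a level of 334 and stood above H2-Eb1, at 227.

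PBS microglia had another order. The loading chains H2-DMb1, at 90.0 ± 8.72 (SD, n = 3), and H2-DMa, at 79.1 ± 11.5, had the highest mean levels, and their ranges overlapped. Cd74 followed at 42.6 ± 14.0, and H2-Ab1 stood at 14.9 ± 5.66, H2-Oa at 9.99 ± 6.69, H2-Eb1 at 8.56 ± 6.32 and H2-Aa at 6.63 ± 5.33. The ranges of H2-DMa and Cd74, and of Cd74 and H2-Ab1, did not overlap, whereas those of H2-Ab1, H2-Oa, H2-Eb1 and H2-Aa did. Ciita had the lowest mean, at 0.111 ± 0.137. Thus H2-DMa and H2-DMb1 stood above the surface chains in PBS microglia and below them in PBS macrophages, whereas H2-DMb2, at 6.96 in PBS microglia, overlapped in range with all 3 surface chains there.

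**Figure D1:**
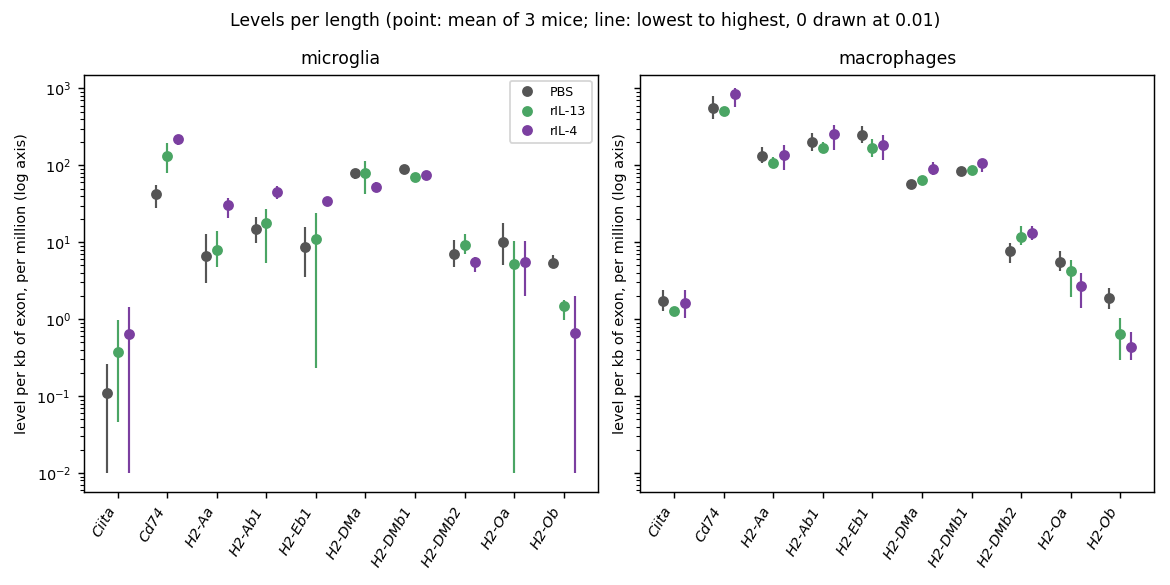
Level of each class II gene per kilobase of exon, scaled to the same sum in each library (log axis) in microglia and in macrophages. Points are means of 3 mice and lines run from the lowest to the highest mouse, with 0 drawn at the foot of the axis. In PBS microglia, H2-DMa and H2-DMb1 are at 79.1 and 90.0, above Cd74 at 42.6, whereas in PBS macrophages Cd74 is at 556.

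The balance between these groups of chains can be set per library as a ratio of levels per length. For each unit of H2-A, the mean of H2-Aa and H2-Ab1, PBS microglia of mice 1, 2 and 3 held 9.74, 3.92 and 12.9 units of H2-DMa, and the macrophages of the same mice held 0.283, 0.385 and 0.388. With rIL-13, microglia of mice 5, 6 and 7 held 5.47, 8.27 and 6.39 units. With rIL-4, those of mice 8, 9 and 10 held 1.24, 1.32 and 1.75, so that the rIL-4 microglia did not overlap with either of the other microglia groups. The macrophage libraries held between 0.283 and 0.607 in the 3 treatments. For Cd74, the ratio to H2-A was 4.18 ± 0.816 (SD, n = 3) in PBS microglia, 5.88 ± 0.439 in rIL-4 microglia and 11.7 ± 3.52 in those given rIL-13. There Cd74 stood apart from H2-A, with 9.37, 15.7 and 9.96 units in mice 5, 6 and 7 against at most 6.36 in any other library.

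Microglia and macrophages of the same cords were compared first after PBS. Among the members, Ciita, the surface chains and Cd74 had the largest differences. Cd74 had 26.3, 31.0 and 16.1 CPM in the microglia of mice 1, 2 and 3 and 527, 290.5 and 325 CPM in their macrophages. H2-Aa had 5.68, 16.1 and 3.84 CPM in microglia and 255, 178 and 191 CPM in macrophages. H2-Eb1 had 4.43, 10.1 and 2.39 CPM against 248, 164 and 181 CPM. For each of these genes, the highest microglia library was below the lowest macrophage library. Ciita had 0, 10 and 38 counts in microglia and 312, 201 and 180 in macrophages.

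By edgeR's quasi-likelihood test, 6 of the 10 members were DE after PBS, 5 lower and 1 higher in microglia, where 40.9% of all 14715 genes tested were DE, 16.3% lower and 24.5% higher. For 6 members, the ranges of both cell types were separate, beside 54.0% of all genes. H2-Eb1 had a log2 fold change of -5.17 (SE 0.504, adjusted p = 8.76e-05, edgeR), H2-Aa of -4.65 (SE 0.517, adjusted p = 0.000176), Ciita of -4.21 (SE 1.01, adjusted p = 0.00954), H2-Ab1 of -4.05 (SE 0.298, adjusted p = 2.19e-05) and Cd74 of -4.0 (SE 0.323, adjusted p = 3.36e-05). The members' median log2 fold change was -2.22, beside 0.04 over all genes tested. The loading chains did not pass the test: H2-DMa had 0.18 (SE 0.153, adjusted p = 0.396) and H2-DMb1 -0.19 (SE 0.148, adjusted p = 0.339). H2-Ob, the beta chain of H2-O, was the member that was higher in microglia. It had 13.1, 8.26 and 8.72 CPM in microglia and 5.29, 4.0 and 3.06 CPM in macrophages (log2 fold change 1.25, SE 0.326, adjusted p = 0.0146, edgeR). Without the macrophages of mouse 2 (adjusted p = 0.0549) or mouse 3 (0.063), H2-Ob was no longer called, nor was it when 1 model held all 18 libraries (0.532).

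**Figure D2:**
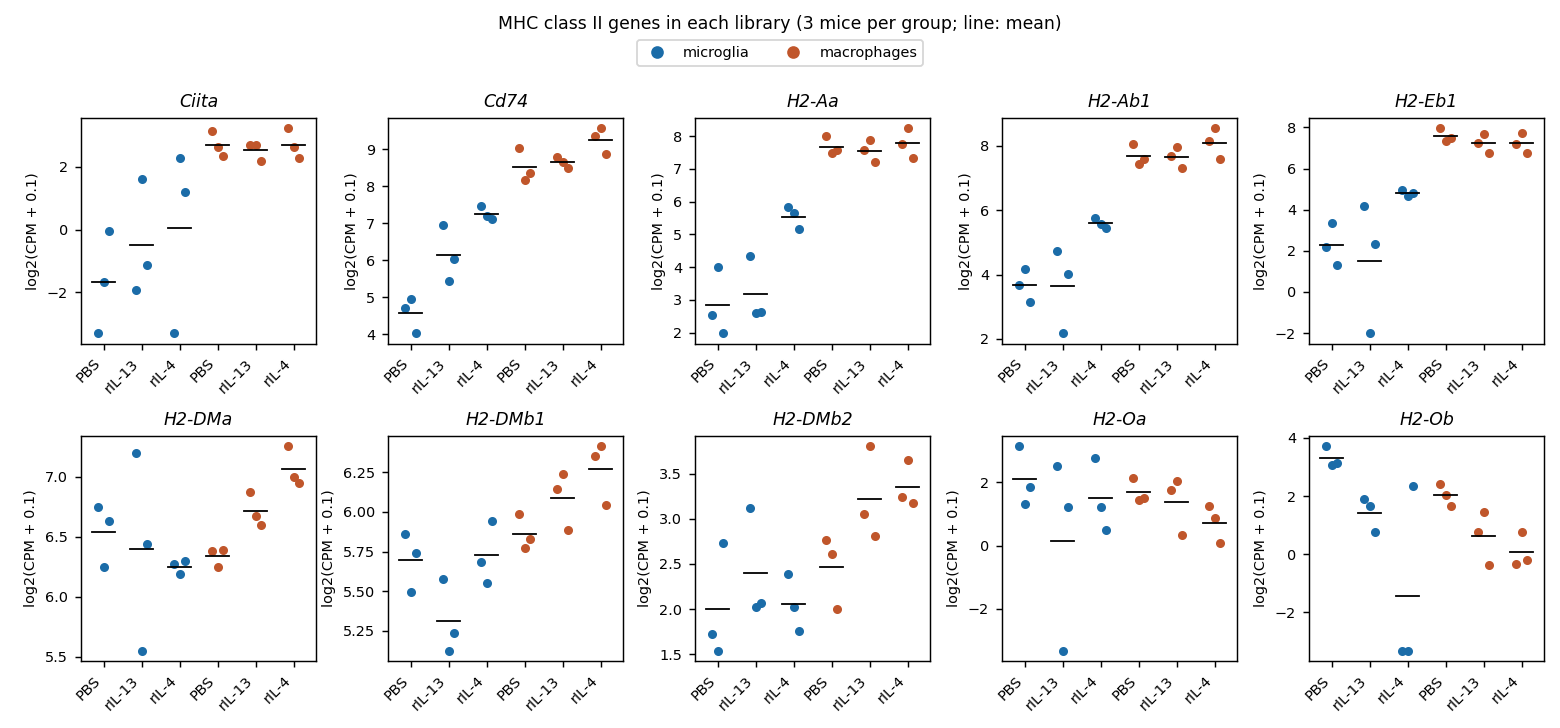
CPM of the 10 class II genes in each library, as log2(CPM + 0.1), for microglia and macrophages after PBS, rIL-13 or rIL-4. Each point is 1 mouse and each line is the mean of 3 on that scale. In microglia, Cd74 goes from 16.1 to 31.0 CPM with PBS to between 139.5 and 176 CPM with rIL-4, below the macrophage libraries.

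The next question was how each cytokine acted on these genes in microglia. With rIL-4, Cd74 rose. Its level was 176, 147 and 139.5 CPM in mice 8, 9 and 10, against 26.3, 31.0 and 16.1 CPM with PBS, a ratio of means of 6.30 (log2 fold change 2.68, SE 0.387, adjusted p = 0.0108, edgeR). The surface chains stood higher in every rIL-4 library too. H2-Aa had 57.1, 50.2 and 35.5 CPM with rIL-4, above 5.68, 16.1 and 3.84 CPM with PBS, and H2-Ab1 had 54.2, 47.8 and 43.1 CPM, above 12.6, 17.9 and 8.78 CPM. H2-Eb1 had 30.6, 25.3 and 28.2 CPM with rIL-4. None of the 3 chains passed the threshold: the log2 fold change was 2.51 (SE 0.644, adjusted p = 0.0902) for H2-Aa, 1.91 (SE 0.544, adjusted p = 0.122) for H2-Ab1 and 2.34 (SE 1.13, adjusted p = 0.349) for H2-Eb1.

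In all, 1 of the 10 members was DE in rIL-4 microglia, higher, where 2.22% of all 15566 genes tested were DE, 1.33% higher and 0.887% lower. For 5 members, the rIL-4 and PBS libraries did not overlap, beside 25.9% of all genes. DESeq2's Wald test called 3 members, namely Cd74, H2-Aa (adjusted p = 0.00128) and H2-Ab1 (adjusted p = 0.0075), beside 7.81% of all genes. The call of Cd74 was lost without PBS mouse 1 (adjusted p = 0.0652) or PBS mouse 3 (0.0613), with a log2 fold change between 2.46 and 2.88 over the 6 fits that left out a mouse.

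The loading chains had values close to those of PBS in rIL-4 microglia. H2-DMb1 had 51.4, 46.8 and 61.5 CPM against 57.9, 44.9 and 53.4 CPM (log2 fold change 0.05, SE 0.189, adjusted p = 0.954, edgeR). H2-DMa had 77.0, 72.7 and 78.6 CPM against 107, 75.7 and 98.7 CPM (log2 fold change -0.28, SE 0.344, adjusted p = 0.807). Ciita had 0, 250 and 80 counts in mice 8, 9 and 10, which overlapped with PBS, and its log2 fold change of 2.69 had an SE of 2.15 (adjusted p = 0.639). H2-Ob had 0 counts in mice 8 and 9 and 182 in mouse 10, where PBS microglia had 537, 383 and 379 (log2 fold change -2.60, SE 1.78, adjusted p = 0.563). Without rIL-4 mouse 10, the remaining rIL-4 libraries held 0 counts of H2-Ob and it was called lower (adjusted p = 0.00723), in a fit whose fold change depends on the prior count. A count of 0 in a library allows up to 3 counts, by counting error only.

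With rIL-13, 0 of the 10 members were DE in microglia by edgeR's quasi-likelihood test, where 0.366% of all genes were, 0.283% higher and 0.0835% lower, and 1 member had an unadjusted p under 0.05, beside 7.76% of all genes. That member was Cd74, with 123, 43.3 and 65.9 CPM in mice 5, 6 and 7. All 3 were above the PBS libraries (log2 fold change 1.67, SE 0.374, adjusted p = 0.17), and DESeq2's Wald test, which called 2.07% of all genes, called it (adjusted p = 0.000611), as did edgeR when 1 model held all 18 libraries (adjusted p = 0.0232). Besides Cd74, only H2-Ob had rIL-13 and PBS libraries that did not overlap, with 3.60, 3.06 and 1.59 CPM with rIL-13 (log2 fold change -1.86, SE 1.73), so 2 members did not overlap, beside 16.0% of all genes. H2-Aa had 20.3, 5.93 and 6.04 CPM, within reach of the PBS libraries (log2 fold change 0.35, SE 0.613), and H2-Ab1 had 26.3, 4.4 and 16.2 CPM (log2 fold change 0.27, SE 0.528). Without rIL-13 mouse 5, both turned negative, to -0.50 for H2-Aa and -0.34 for H2-Ab1. The rIL-13 microglia of mouse 6, the library with the most fibroblast and pericyte markers, held 7 counts of H2-Eb1 and 0 of H2-Oa.

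When the cytokines were set against each other in microglia, 0 members were DE by edgeR, where 0.0385% of all genes were, all of them lower with rIL-4. An unadjusted p under 0.05 was found for 4 members, Cd74, H2-Aa, H2-Ab1 and H2-DMb1, beside 11.4% of all genes. H2-DMb1 had a log2 fold change of 0.43 (SE 0.190, adjusted p = 0.438, edgeR), with overlapping libraries. Here the rIL-4 libraries were above the rIL-13 libraries without overlap for Cd74, H2-Aa, H2-Ab1 and H2-Eb1, beside 12.3% of all genes that did not overlap. H2-Aa had a log2 fold change of 2.16 (SE 0.635, adjusted p = 0.31, edgeR), H2-Ab1 of 1.65 (SE 0.539, adjusted p = 0.343) and Cd74 of 1.01 (SE 0.367, adjusted p = 0.384). DESeq2's Wald test called 2 members, H2-Aa (adjusted p = 0.015) and H2-Ab1 (adjusted p = 0.0494), beside 3.58% of all genes.

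**Figure D3:**
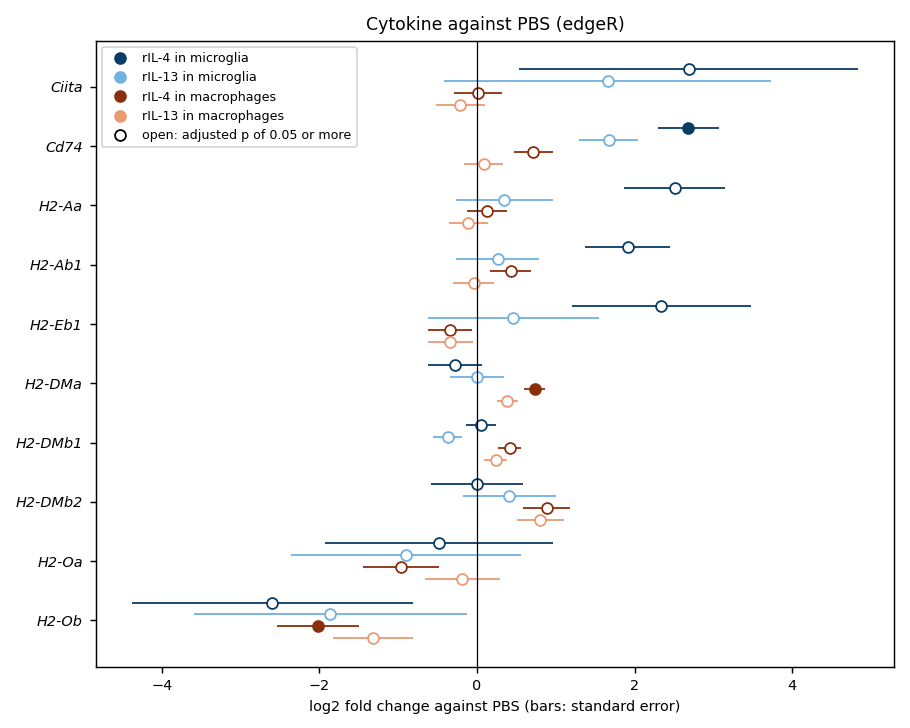
Log2 fold change of each class II gene against PBS for each cytokine and cell type. Bars are standard errors and filled points have an adjusted p under 0.05 by edgeR. Cd74 is at 2.68 with rIL-4 in microglia and 0.72 in macrophages, and H2-Ob is below 0 in all 4 comparisons.

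In macrophages, rIL-4 raised H2-DMa, lowered H2-Ob and left the surface chains short of the threshold. H2-DMa had 153, 128 and 123 CPM in mice 8, 9 and 10, above 83.3, 76 and 83.6 CPM with PBS (log2 fold change 0.73, SE 0.136, adjusted p = 0.00579, edgeR). H2-DMb1 had 81.7, 85.3 and 65.8 CPM, each above 63.4, 54.5 and 56.6 CPM with PBS (log2 fold change 0.42, SE 0.147, adjusted p = 0.0903). H2-DMb2 had 9.33, 12.4 and 8.94 CPM, above 6.70, 6.01 and 3.92 CPM (log2 fold change 0.88, SE 0.299, adjusted p = 0.0784). Both DM beta chains thus had the sign of H2-DMa without passing the threshold. H2-Ob had the opposite sign. It had 0.690, 1.59 and 0.768 CPM with rIL-4, below 5.29, 4.0 and 3.06 CPM with PBS (log2 fold change -2.02, SE 0.518, adjusted p = 0.0273), and H2-Oa had 2.26, 1.72 and 0.948 CPM, below 4.27, 2.62 and 2.73 CPM (log2 fold change -0.96, SE 0.482, adjusted p = 0.227). Per length, H2-Ob stood at 2.20% ± 0.467 of H2-DMb1 (SD, n = 3) in PBS macrophages and at 0.404% ± 0.163 in rIL-4 macrophages.

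The members DE in rIL-4 macrophages were therefore 2 of 10, H2-DMa higher and H2-Ob lower, where 14.0% of all 13606 genes tested were DE, 6.77% higher and 7.20% lower, and the groups did not overlap for 5 members, beside 34.7% of all genes. H2-DMa was called in each of the 6 fits that left out a mouse, with adjusted p between 0.012 and 0.0315. H2-Ob was called in 1 of these fits, without rIL-4 mouse 9, and was lost without PBS mouse 1 (adjusted p = 0.0934), PBS mouse 2 (0.0646), PBS mouse 3 (0.0517), rIL-4 mouse 8 (0.0825) or rIL-4 mouse 10 (0.103). Neither passed when 1 model held all 18 libraries, where adjusted p was 0.148 for H2-DMa and 0.549 for H2-Ob.

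The surface chains and Ciita kept overlapping ranges in rIL-4 and PBS macrophages. H2-Ab1 had a log2 fold change of 0.43 (SE 0.260, adjusted p = 0.325, edgeR) and H2-Eb1 of -0.34 (SE 0.283, adjusted p = 0.485). Cd74 had 656, 756 and 467 CPM with rIL-4 against 527, 290.5 and 325 CPM with PBS, so that mouse 10 was below PBS mouse 1 (log2 fold change 0.72, SE 0.246, adjusted p = 0.0819). Cd74 passed without PBS mouse 1 (adjusted p = 0.0223), by DESeq2's Wald test (adjusted p = 0.0372) and with no filter on low counts (adjusted p = 0.0346). Ciita had 390, 232 and 185 counts with rIL-4 and 312, 201 and 180 with PBS.

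With rIL-13, 0 of the 10 members were DE in macrophages by edgeR, where 4.19% of all genes were, 2.53% higher and 1.66% lower, 3 had an unadjusted p under 0.05, beside 17.9% of all genes, and DESeq2's Wald test called 0, beside 8.55%. These 3 were H2-DMa, H2-DMb2 and H2-Ob, and their rIL-13 and PBS libraries did not overlap, beside 24.5% of all genes. H2-DMa had 117, 102 and 96.6 CPM in mice 5, 6 and 7 (log2 fold change 0.38, SE 0.135, adjusted p = 0.162, edgeR), H2-DMb2 had 8.19, 13.9 and 6.90 CPM (log2 fold change 0.80, SE 0.299, adjusted p = 0.186) and H2-Ob had 1.62, 2.67 and 0.667 CPM (log2 fold change -1.32, SE 0.505, adjusted p = 0.2). The signs were those of rIL-4, with which this comparison shares its PBS libraries. Cd74 had 442, 405 and 360 CPM (log2 fold change 0.08, SE 0.244, adjusted p = 0.911). Macrophages of the rIL-4 and rIL-13 mice had 0 DE members between them by edgeR, where 0.250% of all genes were DE, 0.0294% higher and 0.220% lower with rIL-4, 2 had an unadjusted p under 0.05, beside 11.1% of all genes, and DESeq2 called 0, beside 3.09%. Both, Cd74 (log2 fold change 0.63, SE 0.245, adjusted p = 0.369) and H2-DMa (0.35, SE 0.135, adjusted p = 0.369), had higher values in every rIL-4 library than in any rIL-13 library, beside 14.4% of genes that did not overlap.

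Both H2-Ob and the summed microglia markers were lower in every cytokine library of macrophages than in any PBS library. In macrophages, 11 of 12 of these markers fell with rIL-4, among them Tmem119 (log2 fold change -3.71, adjusted p = 1.87e-05, edgeR), and the summed CPM of the list ran from 4077 to 6035 in PBS libraries, from 2464 to 3910 in rIL-13 libraries and from 2061 to 2261 in rIL-4 libraries. In microglia, 5 of the 12 fell with rIL-4, and the sum was between 8307 and 15350 with PBS and between 3880 and 6348 with rIL-4. Other marker lists moved too. The summed CPM of 8 neutrophil markers was 793 to 1388 in PBS macrophages, 397 to 2829 in rIL-13 macrophages and 161 to 698 in rIL-4 macrophages, and Camp, Ltf and Ngp fell with rIL-4. That of 5 endothelial markers was 43.8 to 51.7, 133 to 217 and 205 to 430 in the same order, and with rIL-4 Pecam1 and Flt1 rose whereas Cldn5 and Kdr fell. The sum of 9 T and NK cell markers was 164 to 203, 77.4 to 113 and 90.7 to 115 in that order, and Cd4 and Il7r fell with rIL-4. For 5 oligodendrocyte markers it was 164 to 186, 121 to 134 and 117 to 125, and Mbp fell with rIL-4. The part of RNA of these cells or of microglia in the class II values of macrophages was not tested.

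After rIL-4, Cd74 and the surface chains were again lower in microglia than in macrophages of the same cords. Here 6 of the 10 members were DE, all lower in microglia, where 23.4% of all 13576 genes tested were DE, 9.97% lower and 13.4% higher, and for 7 members the libraries did not overlap, beside 41.5% of all genes. The log2 fold change was -2.52 (SE 0.256, adjusted p = 0.00052, edgeR) for H2-Ab1, -2.45 (SE 0.254, adjusted p = 0.000574) for H2-Eb1, -2.23 (SE 0.280, adjusted p = 0.00132) for H2-Aa and -2.0 (SE 0.212, adjusted p = 0.000639) for Cd74. H2-DMa was lower too, at -0.80 (SE 0.148, adjusted p = 0.00726), and H2-DMb2 at -1.28 (SE 0.376, adjusted p = 0.0441). The call of H2-DMb2 was lost with the mouse as a block (adjusted p = 0.0953), with DESeq2's size factors (0.0514) and with no filter on low counts (0.0697). It was also lost without either rIL-4 library of mouse 9 (0.076 for microglia, 0.17 for macrophages), either of mouse 10 (0.0687 and 0.132) or the macrophages of mouse 8 (0.129). Ciita did not pass (log2 fold change -1.50, SE 1.34).

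After rIL-13, 5 members were DE and all were lower in microglia, where 26.7% of all 13906 genes tested were DE, 9.46% lower and 17.2% higher, and for 6 members the libraries did not overlap, beside 45.3% of all genes. The log2 fold change was -4.32 (SE 1.22, adjusted p = 0.0357, edgeR) for H2-Eb1, -4.14 (SE 0.545, adjusted p = 0.00179) for H2-Aa, -3.69 (SE 0.599, adjusted p = 0.00397) for H2-Ab1, -2.36 (SE 0.367, adjusted p = 0.00336) for Cd74 and -0.75 (SE 0.190, adjusted p = 0.0232) for H2-DMb1. The calls of H2-Eb1 and H2-DMb1 were both lost without the macrophages of mouse 5, 6 or 7 or the microglia of mouse 7, with adjusted p between 0.0555 and 0.113, which left 3 members. Ciita (log2 fold change -2.27, SE 1.03, adjusted p = 0.155) was called lower without the microglia of mouse 6 (adjusted p = 0.00354).

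**Figure D4:**
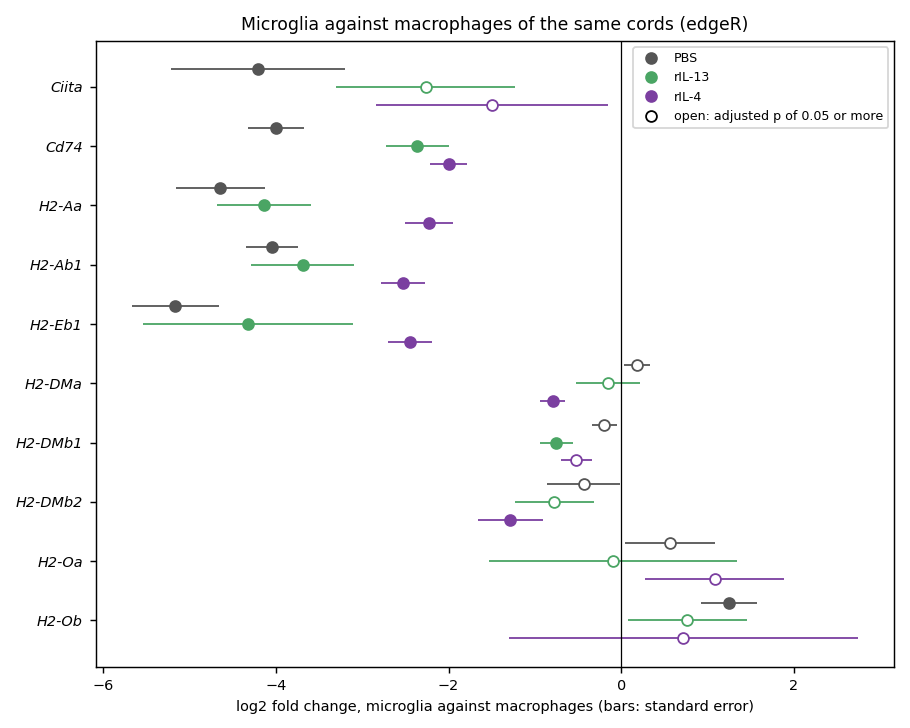
Log2 fold change of each class II gene in microglia against macrophages of the same cords after PBS, rIL-13 and rIL-4. Bars are standard errors and filled points have an adjusted p under 0.05 by edgeR. H2-Aa is at -4.65 with PBS, -4.14 with rIL-13 and -2.23 with rIL-4, whereas H2-DMa is at 0.18, -0.15 and -0.80.

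An interaction term over the 18 libraries asked whether microglia and macrophages responded unequally to a cytokine. For rIL-4, 0 of the 10 members passed in edgeR, where 0.992% of all 16535 genes did, 0.490% with a higher and 0.502% with a lower response in microglia. An unadjusted p under 0.05 was found for 5 members, beside 12.4% of all genes, and DESeq2's Wald test called 2, Cd74 and H2-Aa, beside 4.17%. The response of Cd74 to rIL-4 in microglia exceeded that in macrophages by 1.94 on the log2 scale (SE 0.467, adjusted p = 0.0623, edgeR). With the mouse as a block, the difference was 1.96 and Cd74 was called (adjusted p = 0.0409). The difference was 2.35 (SE 0.697, adjusted p = 0.144) for H2-Aa, 1.46 (SE 0.616, adjusted p = 0.336) for H2-Ab1 and -1.03 (SE 0.384, adjusted p = 0.255) for H2-DMa, whose sign was the opposite. H2-Aa was called without the PBS microglia of mouse 2 (adjusted p = 0.0388). For rIL-13, 0 members passed in edgeR, where 0.0242% of all genes did, 0.00605% higher and 0.0181% lower, 2 had an unadjusted p under 0.05, beside 5.83% of all genes, and DESeq2 called 0, beside 0.931%. These were Cd74, with a difference of 1.58 (SE 0.466, adjusted p = 0.472), and H2-DMb1, with -0.61 (SE 0.236, adjusted p = 0.717).

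In each mouse, the level in microglia can be set as a percentage of that in its macrophages. For H2-Aa, it was 4.42% ± 3.98 (SD, n = 3) with PBS, 5.71% ± 4.24 with rIL-13 and 21.6% ± 4.71 with rIL-4, and for Cd74 it was 6.87% ± 3.28, 18.9% ± 8.55 and 25.4% ± 5.37. H2-Ab1 stood at 6.54% ± 3.27, 8.25% ± 5.76 and 18.1% ± 4.84. The monocyte markers Ly6c2 and Ccr2 were also present in microglia libraries. Ly6c2 stood at 3.59% ± 1.23 of macrophages with PBS, 5.17% ± 2.38 with rIL-13 and 10.2% ± 3.25 with rIL-4, and Ccr2 at 7.59% ± 3.24, 11.6% ± 6.33 and 16.5% ± 10.5. Over the list of 10 monocyte and macrophage markers, none of which was at 0 in a whole group, the summed CPM in microglia ran from 281 to 598 in PBS libraries, from 650 to 947 in rIL-13 libraries and from 672 to 1269 in rIL-4 libraries. In rIL-4 microglia, 4 of the 10 were DE against PBS, all higher, where 1.33% of all genes were: Ms4a7, Cd163, Mrc1 and Cbr2. Of these, Cd163, Mrc1 and Cbr2 also rose with rIL-4 in macrophages, by 6.26, 4.84 and 1.88 on the log2 scale. Ly6c2 had a log2 fold change of 0.65 (SE 0.804, adjusted p = 0.809, edgeR) and Ccr2 of 1.33 (SE 0.503, adjusted p = 0.229). The sum of the fibroblast and pericyte markers ran from 2366 to 3549 CPM in PBS microglia and from 217 to 1547 CPM in rIL-4 microglia, and that of 5 endothelial markers from 641 to 1452 CPM and from 1608 to 2169 CPM, so that neither overlapped. The part of RNA of these cells in the class II values of microglia was not tested.

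**Figure D5:**
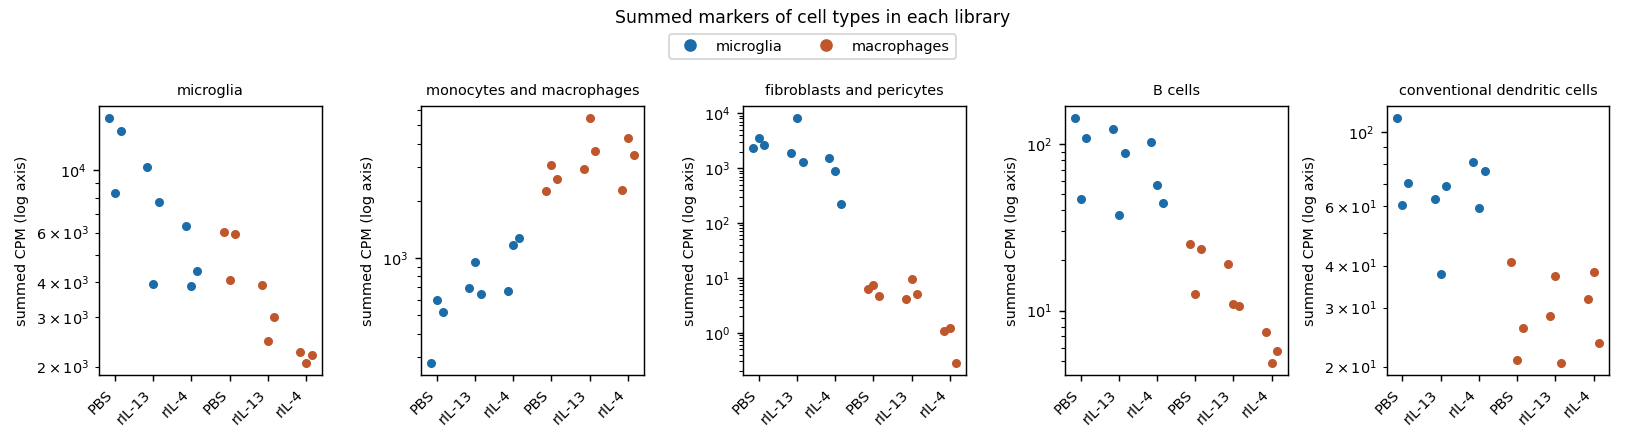
Summed CPM (log axis) of 5 marker lists in each library. In microglia, the monocyte and macrophage sum is between 281 and 598 with PBS and between 672 and 1269 with rIL-4, and the microglia sum is lower with rIL-4 than with PBS in both cell types.

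Other cells that carry class II were looked for in the same way. Of 10 B cell markers, Ms4a1 and Pax5 were at 0 in all 9 microglia libraries, and the summed CPM of the list in microglia was between 46.7 and 143 with PBS and between 44.0 and 102 with rIL-4. In macrophages, that sum ran from 12.7 to 25 in PBS libraries and from 4.86 to 7.42 in rIL-4 libraries, and of the 2 markers tested with rIL-4, Ighm fell (log2 fold change -2.07, adjusted p = 0.00624, edgeR). Of 10 conventional dendritic cell markers, Clec9a was at 0 in rIL-13 and rIL-4 microglia and Cd209a in PBS and rIL-13 microglia. In microglia the sum was 60.7 to 109.7 in PBS, 37.6 to 68.8 in rIL-13 and 59.3 to 81.4 in rIL-4 libraries. In macrophages it was 21.0 to 40.8, 20.5 to 37.2 and 23.6 to 38.3 in the same order. There Batf3 rose with rIL-4 (log2 fold change 2.93, adjusted p = 0.000699, edgeR) and with rIL-13 (2.48, adjusted p = 0.0047). Fscn1 fell with rIL-4 in macrophages (-2.42, adjusted p = 0.0224). Ccr7, which marks dendritic cells that migrate, was the marker of this list DE in rIL-4 microglia, from 0 counts in every PBS library (adjusted p = 0.0282, edgeR), and Flt3 had at most 170 counts there. Their part in the class II values was not tested.

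The genes around the pathway were described by 6 lists. In microglia, 0 genes of these lists were DE by edgeR with either cytokine against PBS or between the cytokines, where 2.22% of all genes were DE with rIL-4, 0.366% with rIL-13 and 0.0385% between them. In macrophages, several of the genes listed as inducers of Ciita were DE with rIL-4, where 14.0% of all genes were. Ifngr1, a chain of the interferon gamma receptor, rose (log2 fold change 1.07, SE 0.163, adjusted p = 0.00217, edgeR), as did Jak2, its kinase (2.56, SE 0.261), and Irf4 (2.52, SE 0.319), whereas Irf8 fell (-0.59, SE 0.133). With rIL-13, Ifngr1 (0.98, SE 0.162), Jak2 (1.84, SE 0.255) and Irf4 (1.46, SE 0.313) rose. Of the 11 genes that process antigen or the invariant chain, Ifi30, a thiol reductase of endosomes, rose with both cytokines, by 1.17 (SE 0.174) with rIL-4 and 0.86 (SE 0.173) with rIL-13, and Cst3, a cathepsin inhibitor, fell with rIL-4 (-0.85, SE 0.178). Of the 9 genes of class II turnover at the surface and its partners, the tetraspanin Cd37 fell with both, and none of the 12 transcription factors and cofactors of class II promoters was DE with either. Of the other 9 genes of the class II region, 6 were tested, and Btnl2 rose with rIL-4 (2.56, SE 0.724, adjusted p = 0.041).

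Between the cell types after PBS, 9 of the 11 processing genes were lower in microglia and 1 was higher, where 16.3% of all genes tested were lower and 24.5% higher. The counts of the next lists stand beside these same shares. The lower genes included Ctsb (log2 fold change -1.79, SE 0.118, adjusted p = 1.29e-05, edgeR), Ctss, the cathepsin that completes invariant chain cleavage (-1.31, SE 0.131), Lgmn (-0.81, SE 0.134) and Ifi30 (-0.80, SE 0.136), and Cst3 was the higher gene (1.18, SE 0.230). The list's median was -0.58, beside 0.04 over all genes. Of the 12 transcription genes, 1 was lower, the coactivator Crebbp (-0.60, SE 0.158, adjusted p = 0.0149), and 0 were higher. Of the 12 inducers, 5 were lower, Il4ra (-1.53, SE 0.199) and Stat6 (-0.94, SE 0.126) among them, and 0 were higher. Cd74 is also a surface receptor of the cytokine Mif, and 4 of 6 genes of its ligands and co-receptors were lower in microglia, with Cxcr4 at -4.41 (SE 0.428), Cd44 at -2.71 (SE 0.195) and Mif at -0.78 (SE 0.204), whereas Ackr3 was higher. Of the 9 turnover and partner genes, 4 were lower and 3 higher. The tetraspanins Cd81 (2.41, SE 0.314, adjusted p = 0.000404) and Cd82 (0.55, SE 0.154) were higher, and Cd63 (-0.62, SE 0.109, adjusted p = 0.00208) and the receptor chain Il10ra (-0.67, SE 0.187) were lower. March8, a ubiquitin ligase that acts on class II, was lower (-0.68, SE 0.168, adjusted p = 0.0107), and Cd83, which stabilizes class II at the surface, was higher (0.97, SE 0.284, adjusted p = 0.0243).

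Across the 9 libraries of a cell type, which share treatments and depth, members can be compared by the correlation of their log2 CPM, given as a description. In microglia, H2-Ab1 correlated with H2-Eb1 at 0.957, with H2-Aa at 0.905 and with Cd74 at 0.806, and Ciita correlated with Cd74 at 0.094 and with H2-Ab1 at -0.126. H2-Ob correlated with Cd74 at -0.714. In macrophages, Ciita correlated with H2-Aa at 0.618, H2-DMa correlated with H2-DMb1 at 0.848 and with H2-Ob at -0.769, and H2-Ob correlated with H2-Eb1 at 0.788. The genes outside the family most like the mean of Cd74, H2-Aa, H2-Ab1 and H2-Eb1 were, of 11083 genes in microglia, Patl1 (r = 0.985), Slc27a1 (0.982), Ptpn12 (0.969), Snap29 (0.969) and Dnmt3b (0.954), and of 11327 genes in macrophages Ppp5c (0.934), Mapk1ip1 (0.890), Mars2 (0.883), 9430091E24Rik (0.857) and Zbtb11os1 (0.835), over 9 libraries each.

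H2-DMb1 and H2-DMb2 are near-identical copies, so their split is uncertain. Their longest coding transcripts, of 1404 and 1483 bases, shared 1150 of 1211 aligned bases (95.0%), and 476 bases lay in identical runs of at least 76 bases, the read length. The counts were deposited after an expected split of such reads. Libraries did not mark strand, so reads from antisense transcripts cannot be told apart.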

How the data were processed

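RNA of sorted microglia and macrophages was amplified by SMART-seq2, with no molecular identifiers and no strand information, and sequenced as paired reads of 76 bases. The authors mapped reads to GRCm38 with STAR 2.5.3a and deposited raw expected counts of RSEM 1.3.0 for each gene, rounded to whole numbers. A read with several matching genes is shared out by RSEM. The methods name no block for the mouse.

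Here, counts were tested with edgeR 4.0.16 (R 4.3.3; quasi-likelihood F test, TMM, filterByExpr), with p-values adjusted by the Benjamini-Hochberg method over all genes tested and a threshold of 0.05. The 9 libraries of a cell type were fitted together for the cytokines, 6 libraries for the cell types and 18 for interactions. SE is the log2 fold change divided by the root of F. All 10 members passed the filter in every comparison. CPM used TMM factors of all 18 libraries. Levels per length used the exon union of GENCODE, to which 53274 of 53465 genes (99.981% of the counts) were matched. DESeq2 1.42.0, other filters, other fits and leaving out each mouse were the alternatives. The fits were tested on simulated data. Replicates are 3 separate mice a group.

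The mouse pairs the cell types, since the labels give both sorts of a mouse its number. Deviations from the group means correlated at 0.0177 to 0.0935 within a mouse, over 16535 genes. The members and lists were chosen with earlier results of these data known. All members were named, together with up to 6 DE genes of a list by lowest p, the defining markers, and the 5 genes most like the mean of Cd74, H2-Aa, H2-Ab1 and H2-Eb1, with at least 10 counts in each library. Promoters came from RefSeq's table, and those of Ciita, Cd74 and H2-Ab1 were not analysed here. Some items are not reported here.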

Additional observations from a re-analysis of the deposited data

How the results depend on the processing

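Fold changes under the alternatives were kept for a chosen set of member results, not for all 10 members in every comparison. Of 745 such values, 738 kept their direction. H2-DMb2 in rIL-4 microglia (log2 fold change -0.0012) and H2-DMa in rIL-13 microglia (0.0024), both near 0, were not in this set. The number of DE members in rIL-4 microglia against PBS was 1, and it was 3 with DESeq2's Wald test and when 1 model held all 18 libraries, 2 with a minimum of 10 counts per library and with only the 6 libraries compared, and 0 to 2 with each mouse left out. In rIL-13 microglia it was 1 in place of 0 with DESeq2 and with all 18 libraries, and 0 to 0 with each mouse left out. Between rIL-4 and rIL-13 microglia it was 2 in place of 0 with DESeq2. In rIL-4 macrophages it was 4 in place of 2 with DESeq2, 0 with all 18 libraries and 1 to 2 with each mouse left out. Between the cell types after rIL-13 it was 3 to 6 in place of 5 with each mouse left out. For the difference between the rIL-4 responses it was 2 in place of 0 with DESeq2, 1 with no filter, 1 with the minimum of 10 counts, 1 with the mouse as a replicate block, and 0 to 1 with each mouse left out. The block also ended the call of H2-DMb2 between the cell types after rIL-4, as did DESeq2's size factors and no filter on low counts, and the block changed no other call of a member reported. With a mouse left out, 4 results turned direction, none of them called: the log2 fold change was -0.057 to 0.14 for H2-DMb1 in rIL-4 microglia, -0.50 to 1.18 for H2-Aa and -0.34 to 0.71 for H2-Ab1 in rIL-13 microglia, and -0.081 to 0.38 for Cd74 in rIL-13 macrophages. The cause of these changes was not tested. With 2 mice in a group, fewer samples enter the test. Over all genes tested, DESeq2 called 7.81% in microglia given rIL-4, 2.07% in those given rIL-13, 3.58% between them, 19.6% in rIL-4 macrophages and 4.17% for the difference between the rIL-4 responses, and the model of 18 libraries called 5.74% and 1.04% in microglia given rIL-4 or rIL-13 and 6.37% in rIL-4 macrophages. DE genes over all 15566 tested in rIL-4 microglia were 345, and were 1215 with DESeq2, 949 in the model of 18 libraries (16535 tested) and 75 without PBS mouse 3 (16336 tested). Ciita, H2-DMb2, H2-Oa and H2-Ob had at most 537 counts in a library, which limits what their values can show.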
